A study of Arabidopsis thaliana with 4 samples.

Results

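DIN1, DIN2, DIN6, DIN9, DIN10, DIN11 and GAT1_2.1 are 7 Arabidopsis thaliana genes whose transcripts are known to accumulate in darkness and when sugar is short. They were chosen by locus, 7 of the 33558 loci in the deposited expression table, with their values in all 4 columns already known. Their levels and differences are therefore given as a description: no p-value is given for them, and where the number that edgeR calls is stated, nothing is read from it. The first 6 carry the name dark inducible, and GAT1_2.1 encodes a protein of the glutamine amidotransferase family.

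RNA was sequenced from tissue labelled as shoot of 7-day-old seedlings, in 4 samples, 1 for each pair of genotype and light. The genotypes were the accession Col-0 and a mutant line (label hfr1-4pil1-2), which carries alleles of HFR1 and PIL1, a pair of basic helix-loop-helix genes that restrain the shade response. All seedlings grew at 22 °C on MS agar that held no sucrose. White light was continuous at 30 to 50 µE per square metre and second, with a red to far-red ratio (R:FR) of 1.2, for 7 days; low R:FR seedlings had 3 days of it and then 96 h under LEDs giving red at 13, blue at 1.23 and far-red at 20 µE. The amount and the colour of the light changed together, so their effects on these genes cannot be told apart. The number of seedlings behind a sample is not given in the sources used here, and no sugar was measured in the data used.

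Each Col-0 column of the table is the authors' mean of 2 libraries, and both libraries were recovered from it as whole reads, so that 6 libraries entered the fits. The mutant-labelled columns hold 1 library each, and its spread was taken to be that of the Col-0 pairs. The libraries held 7358583 to 14684713 reads on genes. Values are normalized counts, reads divided by the authors' factor for the library. Nothing in the labels says that the Col-0 libraries came from separate plants, so a p-value here is set against a spread that may be purely technical. In bulk tissue, more cells of a type and more RNA per cell cannot be told apart.

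HFR1 and PIL1 transcripts were not lower in the mutant-labelled libraries. For HFR1 the Col-0 libraries gave 22.2 and 33.6 normalized counts under white light and 2046 and 2359 under low R:FR; the mutant-labelled ones gave 189 and 2112. For PIL1 the values were 12.7 and 20.4, then 241 and 313, and finally 220 and 1574. Transcript levels thus do not check the genotype labels, and every genotype difference below is one between libraries so labelled.

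Plant cells that run short of sugar activate the kinase SnRK1, which switches growth off and turns on genes that release carbon and nitrogen from stored or structural compounds. Transcription factors of the bZIP groups C and S1 act downstream of SnRK1 on DIN6 and other targets, and feeding sugar represses the dark-inducible genes. Shade and prolonged darkness lower photosynthesis, and leaves kept in the dark raise these transcripts within hours.

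The proximal promoters were read from RefSeq's TAIR10.1 assembly as the 250 bases before the annotated gene start, since members that stand high together invite a look at the sequence they may share. The table itself names loci without coordinates, and its notes name TAIR10. Below, 4 of the 7 are shown 5′ to 3′ on the gene's strand because they hold the motifs searched most often, which are in capitals: DIN1 at chr4:16944628-16944877 on the plus strand, DIN6 at chr3:17441432-17441681 on the minus strand, DIN11 at chr3:18393497-18393746 on the plus strand and GAT1_2.1 at chr1:5181403-5181652 on the minus strand.
DIN1: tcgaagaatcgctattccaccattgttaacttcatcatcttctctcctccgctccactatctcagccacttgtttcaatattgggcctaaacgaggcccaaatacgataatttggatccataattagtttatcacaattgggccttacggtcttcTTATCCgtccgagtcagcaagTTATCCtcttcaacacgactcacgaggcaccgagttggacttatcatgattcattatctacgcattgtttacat
DIN6: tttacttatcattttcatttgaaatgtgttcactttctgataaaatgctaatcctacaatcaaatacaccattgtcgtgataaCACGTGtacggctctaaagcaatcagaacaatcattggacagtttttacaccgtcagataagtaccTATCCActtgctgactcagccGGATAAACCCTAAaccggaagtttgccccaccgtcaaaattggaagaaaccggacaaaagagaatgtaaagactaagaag
DIN11: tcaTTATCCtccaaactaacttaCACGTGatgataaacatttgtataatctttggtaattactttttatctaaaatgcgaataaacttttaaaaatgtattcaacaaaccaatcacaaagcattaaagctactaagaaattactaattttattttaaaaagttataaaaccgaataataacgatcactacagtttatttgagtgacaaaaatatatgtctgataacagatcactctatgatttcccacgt
GAT1_2.1: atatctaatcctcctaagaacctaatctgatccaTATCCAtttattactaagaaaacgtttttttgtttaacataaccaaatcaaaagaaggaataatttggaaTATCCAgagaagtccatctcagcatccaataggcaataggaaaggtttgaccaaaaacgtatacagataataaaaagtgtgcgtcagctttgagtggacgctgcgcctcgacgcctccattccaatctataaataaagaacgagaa

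Motifs were searched on both strands. CACGTG, the G-box that bZIP and basic helix-loop-helix factors can bind, was present in DIN6 at position -167 and in DIN11 at -227, counted back from the gene start to the motif's first base. It occurs in 6.49% of 27443 promoters of the same length. CACATG, an E-box variant that phytochrome-interacting factors can bind, was in 0 of the 7 against 11.1% of all promoters. TATCCA, an element known from sugar-starved rice alpha-amylase promoters, was in DIN6 at -101 and in GAT1_2.1 at both -216 and -146, against 13.6% of promoters. TTATCC, known as a sugar-repressible element, was in DIN1 at -95 and -74, in DIN11 at -247 and, on the opposite strand, in DIN6 at -80, against 12.5%. Both elements share most of their letters, but no match of one overlapped a match of the other here. ACTCAT, known from a proline dehydrogenase promoter that bZIP factors bind, was in DIN9 at -94, against 12.3%. The telo-box AAACCCTAA was in DIN6 at -76, against 2.61%, where it overlaps the reversed sugar-repressible element. DIN6 held 4 of the 6 motifs, and the windows of DIN2 and DIN10 held none. These matches describe letters in a window only.

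DIN1 (AT4G35770), also called SEN1, encodes a rhodanese-domain protein and is a marker of dark-induced and ageing leaves. It lies at chr4:16944878-16946266 of TAIR10.1. Its Col-0 white light libraries gave 7.15 and 15.6 normalized counts (9 and 13 reads), and its low R:FR libraries 1369 and 1640. The mutant-labelled libraries held 32.3 under white light and 1422 under low R:FR. Low R:FR libraries of both genotypes thus lay far above all white light libraries. The fitted log2 fold change was 7.14 ± 0.18 (SE) in Col-0, a 141-fold difference, and 5.45 ± 0.21 between the mutant-labelled libraries. For the latter, an exact binomial 95% interval on the reads ran from 5.01 to 5.94, and such intervals cover counting error only. A span of 2 SE to either side ran from 5.03 to 5.87, narrower than that interval. The SE here and below was derived from edgeR's F statistic and may understate the spread. DESeq2's SE for DIN1 in Col-0 was 0.39. Ranked by the log2 ratio of the deposited columns, with 10.8 normalized counts added to each, DIN1 was the highest of 20111 genes in Col-0 and number 4 between the mutant-labelled libraries. This order depends on the added constant. By the plain ratio of the Col-0 columns FLP1, at 1.60 and 288, lay above DIN1, at 11.4 and 1504.

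DIN6 (AT3G47340), also called ASN1, makes asparagine from glutamine and aspartate, a way to store and carry nitrogen with little carbon. In Col-0 it had 38.9 and 28.8 normalized counts under white light and 317 and 339 under low R:FR. The mutant-labelled libraries held 22.3 and 352. GAT1_2.1 (AT1G15040), with its glutamine amidotransferase domain, had 23.0 and 40.8 in Col-0 under white light and 472 and 593 under low R:FR, and 27.0 and 560 in the mutant-labelled libraries. For both genes, the low R:FR libraries of both genotypes stood close to one another. The fitted log2 fold change of DIN6 was 3.23 ± 0.14 (SE) in Col-0 and 3.97 ± 0.22 between the mutant-labelled libraries. That of GAT1_2.1 was 4.13 ± 0.19 and 4.37 ± 0.27. GAT1_2.1 overlaps AT1G15030 on the opposite strand, whose deposited values were 345 and 279 in Col-0 (white light, then low R:FR) and 314 and 303 in the mutant-labelled columns. Whether reads were counted by strand is not given in the sources used here, so reads of the pair may not be separable.

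The sugar-releasing and sugar-converting enzymes came next. DIN10 (AT5G20250), raffinose synthase 6, belongs to the family that acts on raffinose and related galactosyl sugars, and was the most abundant member in white light. In Col-0 it had 638 and 760 normalized counts under white light and 5051 and 5686 under low R:FR. In the mutant-labelled libraries it stood at 971 and 3175. Its mutant-labelled white light value lay above both Col-0 white light values, and its mutant-labelled low R:FR value lay below both Col-0 low R:FR values. The fitted log2 fold change was 2.95 ± 0.091 (SE) in Col-0 and 1.71 ± 0.12 between the mutant-labelled libraries, and its rank by deposited ratio was 26 and 401.

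DIN2 (AT3G60140), the beta-glucosidase BGLU30, belongs to enzymes that release glucose from beta-linked glucosides. In Col-0 it had 64.3 and 92.3 normalized counts under white light and 597 and 585 under low R:FR, with 29.3 and 455 in the mutant-labelled libraries. Both mutant-labelled values lay below both Col-0 values in the same light. The fitted log2 fold change was 2.96 ± 0.12 (SE) in Col-0 and 3.95 ± 0.22 between the mutant-labelled libraries.

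DIN9 (AT1G67070) encodes a phosphomannose isomerase, which converts mannose 6-phosphate and fructose 6-phosphate into each other. It differed least among the 7 in Col-0, with 49.2 and 45.5 normalized counts in white light against 68.2 and 82.3 in low R:FR. The mutant-labelled libraries held 37.7 and 76.0. The libraries of the lights did not overlap, but the fitted log2 fold change was only 0.64 ± 0.18 (SE) in Col-0 and 1.01 ± 0.29 between the mutant-labelled libraries. DIN9 was no longer called in Col-0 without the low R:FR replicate 2, and DESeq2 called it in neither genotype.

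DIN11 (AT3G49620), of the family of oxygenases that use 2-oxoglutarate and iron, was the least abundant per length in Col-0. In Col-0 it had 7.94 and 7.19 normalized counts under white light and 45.4 and 40.7 under low R:FR, with 12.3 and 20.7 in the mutant-labelled libraries. The mutant-labelled low R:FR value lay between the Col-0 white light and low R:FR values. The fitted log2 fold change was 2.49 ± 0.30 (SE) in Col-0. It was 0.75 ± 0.49 between the mutant-labelled libraries, where the exact binomial 95% interval on the reads ran from -0.37 to 1.86 and included 0.

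**Figure D1:**
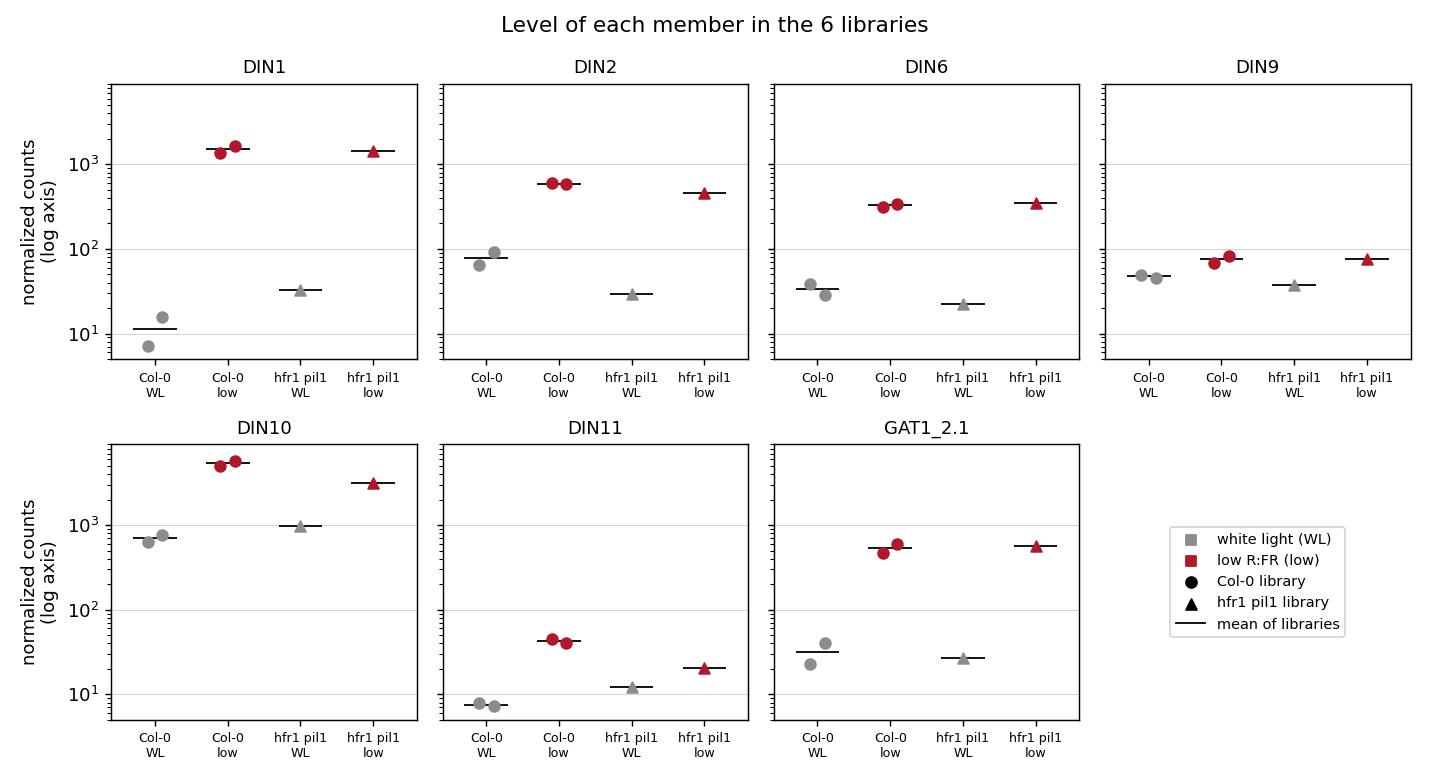
Normalized counts (log axis) of the 7 genes in the 6 libraries; circles are Col-0 libraries, triangles libraries labelled hfr1 pil1, grey white light (WL), red low R:FR, and bars the mean of a group's libraries. In each panel every low R:FR point lies above both Col-0 white light points, and DIN11 has the lowest low R:FR triangle, at 20.7.

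In Col-0, both low R:FR libraries lay above both white light libraries for 7 of the 7 genes, where 35.6% of all 20013 genes tested did so. By edgeR's quasi-likelihood test 7 of 7 were called higher, against 23.0% of genes, and 6 of 7 between the mutant-labelled libraries, DIN11 being the exception, against 18.4%. At least 2-fold higher by deposited ratio were 6 in Col-0, without DIN9, against 4.79% of genes, and 5 between the mutant-labelled libraries, without DIN9 and DIN11, against 6.48%. The genes were chosen for these contrasts, so nothing is read from these counts. The median fitted log2 fold change of the 7 was 2.96 in Col-0 and 3.95 between the mutant-labelled libraries, beside medians of -0.02 and 0.00 over all genes tested.

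Expressed per kilobase of exon, which allows genes to be compared, the order of levels changed with the light. In Col-0 white light DIN10 led with 224 normalized counts per kilobase, followed by DIN2 with 33.5. DIN9 with 22.5 and GAT1_2.1 with 21.0 overlapped between libraries, as did DIN6 with 12.3 and DIN1 with 8.76, and DIN11 was last with 4.92. In Col-0 low R:FR no neighbours in the order overlapped. DIN10 stood at 1721 per kilobase, DIN1 had moved from the sixth place to the second with 1160, and GAT1_2.1 followed with 351, DIN2 with 253, DIN6 with 119, DIN9 with 35.8 and DIN11 with 28.01. In the mutant-labelled low R:FR library DIN1 with 1097 and DIN10 with 1018 overlapped within their counting intervals, and the order of the other 5 was that of Col-0.

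The genotype comparisons set 1 mutant-labelled library against 2 Col-0 libraries in each light. In low R:FR, the levels of 4 genes differed little: the fitted log2 difference, mutant-labelled minus Col-0, was -0.08 ± 0.11 (SE) for DIN1, 0.11 ± 0.12 for DIN6, 0.03 ± 0.23 for DIN9 and 0.08 ± 0.15 for GAT1_2.1. DIN2 stood at -0.38 ± 0.12, DIN10 at -0.76 ± 0.10 and DIN11 at -1.06 ± 0.35. In low R:FR only DIN10 was called, lower, against 1.40% of genes called lower. By deposited ratio 0 of the 7 lay at least 2-fold apart in this light, where 0.249% of genes did so upwards and 0.348% downwards.

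In white light the difference was larger for DIN1, at 1.61 ± 0.42 (SE), and of opposite sign for DIN2, at -1.37 ± 0.25. DIN10 stood at 0.48 ± 0.11, DIN11 at 0.68 ± 0.47, DIN6 at -0.64 ± 0.29, DIN9 at -0.34 ± 0.25 and GAT1_2.1 at -0.16 ± 0.39. DIN10 was called higher, against 0.575% of genes, and DIN2 lower, against 1.89%. DIN2 alone was at least 2-fold lower by deposited ratio, against 0.781% of genes. Without the white light Col-0 replicate 1, DIN10 was not called; without any one of the other 3 Col-0 libraries, DIN1 was called higher as well.

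The difference of the responses, the mutant-labelled log2 fold change minus that of Col-0, differed in sign among the 7 genes. It was negative for DIN1 at -1.69 ± 0.44 (SE), DIN10 at -1.24 ± 0.15 and DIN11 at -1.74 ± 0.60, and positive for DIN2 at 0.99 ± 0.29, DIN6 at 0.74 ± 0.31, DIN9 at 0.36 ± 0.34 and GAT1_2.1 at 0.24 ± 0.42. The sign of GAT1_2.1 turned without the Col-0 white light replicate 2, to -0.15 ± 0.41. DIN10 was called, against 1.81% of genes called lower in this difference. By deposited ratio DIN1, DIN10 and DIN11 were at least 2-fold lower in it, against 0.597% of genes. DIN1 was called as well with each Col-0 library left out in turn except the white light replicate 1, without which DIN2 was called instead. For DIN1, the difference lay in white light, where the Col-0 libraries held 9 and 13 reads and the mutant-labelled library held 42. For DIN11, the reads behind the mutant-labelled values were few, 16 under white light and 15 under low R:FR.

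**Figure D2:**
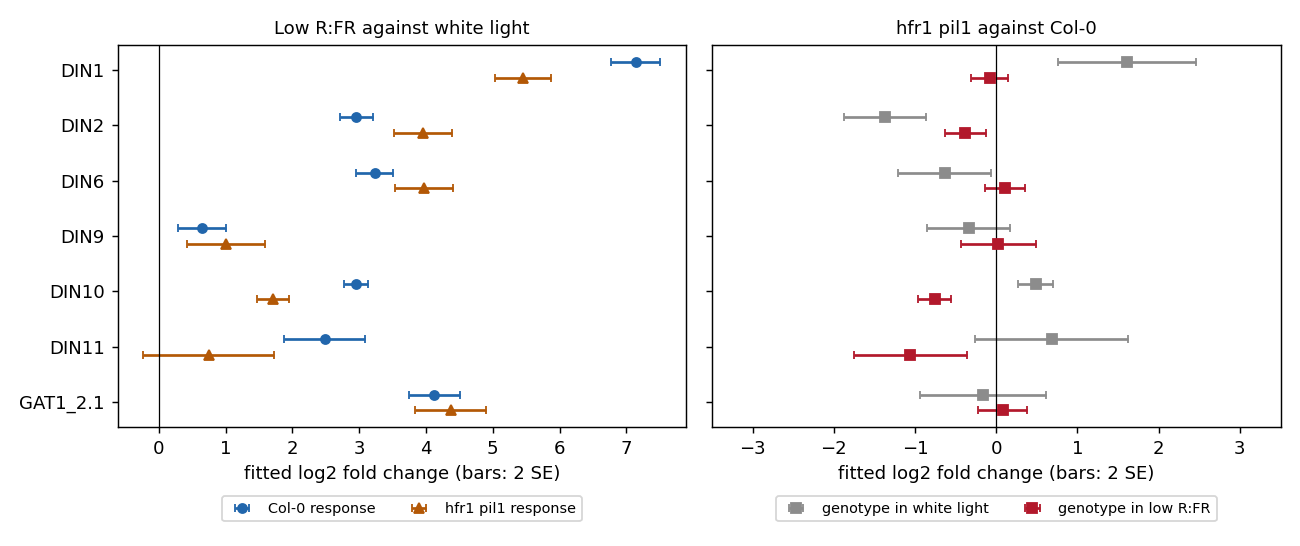
Fitted log2 fold changes with bars of 2 SE: left, low R:FR against white light in Col-0 (blue circles) and between the libraries labelled hfr1 pil1 (orange triangles); right, hfr1 pil1 against Col-0 in white light (grey) and in low R:FR (red). DIN10 is the gene whose white light square (0.48) and low R:FR square (-0.76) lie on opposite sides of 0 with neither bar reaching it. The SE was derived from edgeR's F statistic, and DESeq2 gave a larger SE for every gene shown.

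Markers of root tissue were present in the samples labelled as shoot. All 12 root markers listed passed the filter on low values and none was at 0 in any column. Their summed level was 33746 normalized counts under white light and 39190 under low R:FR in Col-0, and 29050 and 40387 in the mutant-labelled columns; without PYK10, a beta-glucosidase abundant in roots and hypocotyls, the sums were 3678, 5350, 3878 and 5148. In white light the 11 root markers tested had a median log2 difference, mutant-labelled minus Col-0, of -0.55, beside -0.004 over all genes tested. Single markers lay on both sides of 0, and edgeR called 4 of the 11 lower and 1 higher. Of all genes tested, 1.89% were called lower and 0.575% higher. Among the lower ones were the vacuolar water channel gene TIP2;3 at -1.81 and the root hair expansin gene EXPA7 at -1.01. Of the same 11, 5 rose and 4 fell in Col-0 low R:FR, where 23.0% of all genes tested rose and 25.3% fell. Between the mutant-labelled libraries 6 rose and 2 fell, where 18.4% of all genes tested rose and 18.5% fell. TIP2;3 rose from 125 to 785 normalized counts in Col-0 (log2 2.65 ± 0.18, edgeR adjusted p = 7.84e-08), and CASP1, a Casparian strip gene, from 241 to 518, whereas HAK5, a potassium transporter gene, fell from 264 to 4.75 and the nitrate transporter gene NRT2.1 from 28.5 to 4.58. All 8 leaf markers were present, with sums of 390407, 205687, 379006 and 198159, and the only one low enough to be split and tested, the photosystem subunit gene PSAD1, fell by 0.33 ± 0.068 in Col-0 (edgeR adjusted p = 0.00125). The part of tissue make-up in the results for the 7 genes was not tested.

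Paralogues of the 7 genes did not share one direction. The relatives and the lists below were chosen with earlier results of these data known. Their counts and adjusted p-values are therefore given as a description. Of 18 relatives listed, 13 passed the filter and were tested. In Col-0 6 rose and 6 fell, with a median log2 fold change of -0.37, and between the mutant-labelled libraries 4 rose and 5 fell, with a median of 0.06; DESeq2 called 3 of the latter lower. Over all genes tested, which is the background for this and the following lists, 23.0% rose and 25.3% fell in Col-0, and 18.4% rose and 18.5% fell between the mutant-labelled libraries. BGLU29, BGLU31, BGLU32, AT3G49630 and AT1G66860 lay below the filter.

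Among the rhodanese-family relatives of DIN1, AT2G17850 went from 15.7 normalized counts (37 reads) in Col-0 white light to 0 in both low R:FR libraries, and from 33.9 to 0 between the mutant-labelled libraries. Against a floor of 3 reads over the group it was at least 15.2-fold lower in Col-0 and at least 8.17-fold lower between the mutant-labelled libraries. edgeR called both (adjusted p = 4.63e-04 and 0.00423) and DESeq2 neither. STR16 rose from 1772 to 3510 in Col-0 (log2 0.99 ± 0.069, edgeR adjusted p = 1.2e-07) and by 1.02 ± 0.10 between the mutant-labelled libraries. STR18 rose from 511 to 809 in Col-0 (0.69 ± 0.12) and from 246 to 1110 between the mutant-labelled libraries (2.18 ± 0.18, edgeR adjusted p = 1.11e-06). The response of STR18 was larger between the mutant-labelled libraries by 1.49 ± 0.21 (edgeR adjusted p = 0.00314).

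BGLU28, the measured beta-glucosidase relative of DIN2, fell from 175 to 34.2 in Col-0 (log2 -2.32 ± 0.17, edgeR adjusted p = 1.68e-07) while DIN2 stood higher, and from 91.6 to 26.3 between the mutant-labelled libraries. Among relatives of DIN10, RS2 rose from 1249 to 3514 in Col-0 (1.49 ± 0.067, edgeR adjusted p = 2.19e-09) and less between the mutant-labelled libraries (0.79 ± 0.095), a difference of -0.71 that was called (edgeR adjusted p = 0.00579). DIN10 and RS2 thus shared the sign of that difference. RS4 was called lower between the mutant-labelled libraries, from 25.4 to 6.91 (-1.86 ± 0.60, edgeR adjusted p = 0.0282), but not by DESeq2, and stood at 14.7 and 7.85 in Col-0. Relatives of DIN6 changed less than it in Col-0, where its log2 fold change was 3.23. ASN2 rose as well, by 0.47 ± 0.068 (edgeR adjusted p = 7.98e-05), and ASN3 fell by 0.58 ± 0.088 (edgeR adjusted p = 1.22e-04). Between the mutant-labelled libraries ASN2 stood at 0.06 ± 0.099 and ASN3 at -0.73 ± 0.13.

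**Figure D3:**
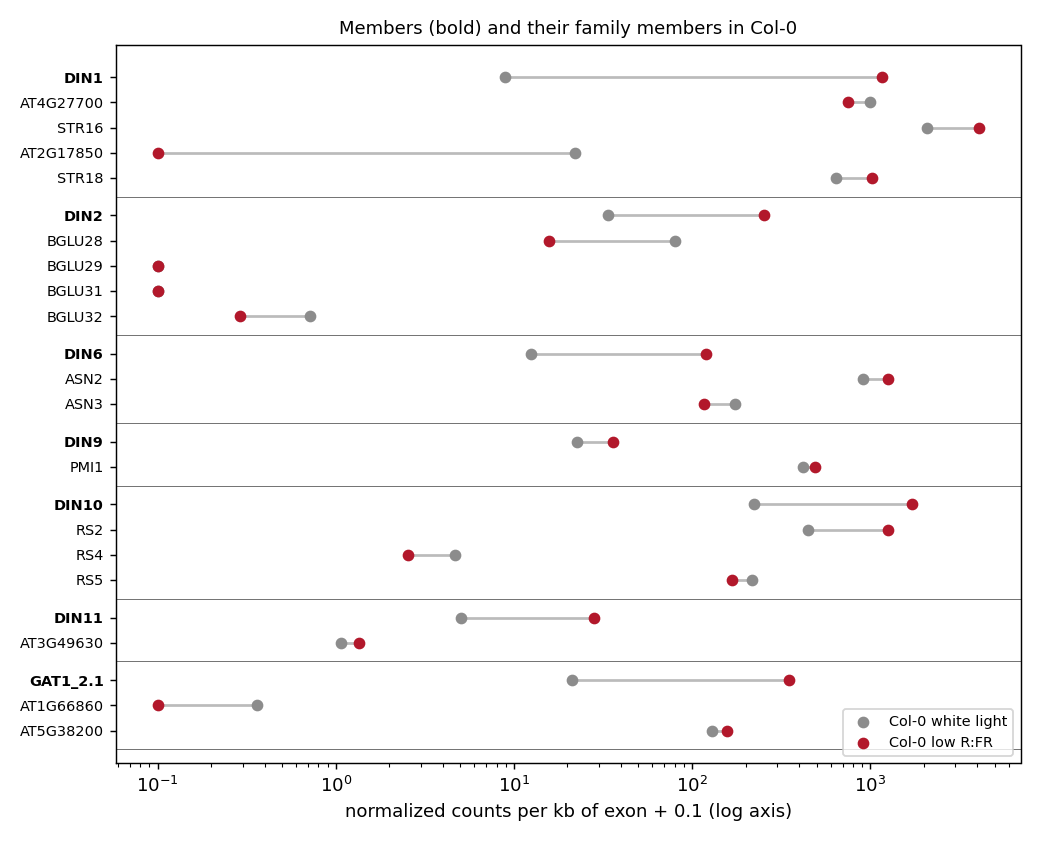
Normalized counts per kilobase of exon in Col-0 white light (grey) and low R:FR (red), on a log axis with 0.1 added so that 0 can be drawn, for the 7 genes (bold) and the listed relatives reported singly. DIN1 spans the widest distance of the 7, 8.76 to 1160, while the rhodanese relative AT2G17850 and BGLU28 lie the other way round.

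Genes that report or carry SnRK1 and trehalose 6-phosphate signalling rose more often than they fell. Of 15 listed, 9 rose and 3 fell in Col-0 (median log2 0.54), and 9 rose and 3 fell between the mutant-labelled libraries (median 0.69). The share of the list that fell, 3 of 15, was near the 25.3% of all genes in Col-0. The class II trehalose phosphate synthase genes TPS8 to TPS11, known as sugar-repressed, were among the largest changes. TPS8 rose from 177 to 1077 in Col-0 (log2 2.63 ± 0.10, edgeR adjusted p = 5.85e-10) and from 168 to 782 between the mutant-labelled libraries (2.22 ± 0.15). TPS11 rose by 2.27 ± 0.15 and 2.08 ± 0.22, TPS9 by 1.88 ± 0.13 and 1.51 ± 0.18, and TPS10 by 1.36 ± 0.11 and 1.60 ± 0.17. TPS1, which makes trehalose 6-phosphate, fell by 0.77 ± 0.081 in Col-0 (edgeR adjusted p = 4.85e-06). KIN10, a catalytic subunit gene of SnRK1, stood at 568 and 591 in Col-0 and was not called. KIN11, the other catalytic subunit gene listed, rose from 357 to 483 in Col-0 (0.44 ± 0.089, edgeR adjusted p = 0.00103). It stood at 0.69 ± 0.13 between the mutant-labelled libraries. Of the regulatory subunit genes listed, AKINBETA1 and KING1 rose by 1.55 ± 0.13 and 1.22 ± 0.080 in Col-0, while AKINBETA2 and SNF4 were not called.

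The C and S1 bZIP genes, whose proteins act on DIN6 downstream of SnRK1, included bZIP63 and bZIP53 among those that rose. Of 9 listed, 7 were tested, while bZIP1 and bZIP11 had no entry among the 33558 loci and could not be assessed. In Col-0 3 rose and 2 fell (median log2 0.19), and between the mutant-labelled libraries 3 rose and 0 fell (median 0.22). DESeq2 called 0 lower in Col-0 and 1 higher between the mutant-labelled libraries. bZIP63 rose from 175 to 422 (1.27 ± 0.10, edgeR adjusted p = 4.14e-07) and bZIP53 from 668 to 1037 (0.64 ± 0.079, edgeR adjusted p = 1.92e-05) in Col-0. bZIP44 fell from 83.0 to 56.4 (-0.57 ± 0.20, edgeR adjusted p = 0.0323), a call lost with DESeq2 or without the white light replicate 1 or the low R:FR replicate 2. bZIP9 was called higher between the mutant-labelled libraries, from 284 to 368 (0.37 ± 0.13, edgeR adjusted p = 0.0417), not by DESeq2.

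Among other transcripts known to be repressed by sugar, those that rose outnumbered those that fell. Of 14 listed, 13 rose and 1 fell in Col-0 (median log2 2.16), and likewise between the mutant-labelled libraries (median 1.81). AT3G15450, annotated as an aluminium-induced protein, rose from 141 to 3617 in Col-0 (4.71 ± 0.16, edgeR adjusted p = 2.01e-10) and by 3.93 ± 0.21 between the mutant-labelled libraries. DRM2, a dormancy-associated gene, rose from 169 to 4192 (4.68 ± 0.16, edgeR adjusted p = 2.59e-10) and by 3.73 ± 0.21. The beta-xylosidase gene BXL1 rose from 244 to 1887 (3.00 ± 0.14, edgeR adjusted p = 2.85e-09). MIOX4, an inositol oxygenase gene, rose from 1.39 to 25.3 in Col-0 (4.04 ± 0.50, edgeR adjusted p = 1.94e-05), and its call between the mutant-labelled libraries was lost with DESeq2. DIN3 and DIN4, the dark-inducible genes for subunits of the branched-chain keto acid dehydrogenase, rose by 1.62 ± 0.098 and 1.12 ± 0.097 in Col-0 (edgeR adjusted p = 3.32e-08 and 7.78e-07) and stand here as further genes of the dark-inducible name. The exception was EXPA10, an expansin gene, which fell by 1.41 ± 0.071.

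Transcripts known to be induced by sugar fell more often than they rose. Of 9 listed, 7 fell and 2 rose in Col-0 (median log2 -3.36), and 6 fell and 1 rose between the mutant-labelled libraries (median -1.55). PAP1, the anthocyanin MYB gene, fell from 215 to 10.8 in Col-0 (-4.34 ± 0.19, edgeR adjusted p = 2.11e-09) and from 165 to 29.0 between the mutant-labelled libraries. GPT2, a plastid glucose-phosphate carrier gene, fell from 152 to 7.88 (-4.22 ± 0.31, edgeR adjusted p = 2.03e-07). BAM5, a beta-amylase gene, fell from 36.5 to 2.49 (-3.84 ± 0.40, edgeR adjusted p = 4.02e-06), and SUS4, a sucrose synthase gene, from 318 to 31.9 (-3.36 ± 0.28, edgeR adjusted p = 5.95e-07). The hexose carrier gene STP13 rose by 0.94 ± 0.089 in Col-0 (edgeR adjusted p = 1.9e-06), as did TPPA by 0.26 ± 0.083, a call lost with DESeq2 or without the white light replicate 2 or the low R:FR replicate 1.

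Genes that break down asparagine, proline, lysine and leucine also rose more often than they fell. Of 15 listed, 12 rose and 1 fell in Col-0 (median log2 1.05), and 9 rose and 1 fell between the mutant-labelled libraries (median 1.13). BCAT2, a branched-chain aminotransferase gene, rose from 14.5 to 291 in Col-0 (4.29 ± 0.16, edgeR adjusted p = 5.12e-10) and from 13.1 to 330 between the mutant-labelled libraries. MGL, methionine gamma-lyase, rose from 381 to 1147 (1.59 ± 0.081, edgeR adjusted p = 6.86e-09), LKR/SDH, the lysine-degrading enzyme, by 1.56 ± 0.10 and IVD, isovaleryl-CoA dehydrogenase, by 1.47 ± 0.096. The gene that fell in Col-0 was P5CDH of proline breakdown, from 1073 to 657 (-0.70 ± 0.074, edgeR adjusted p = 4.78e-06), named as the list's exception. The asparaginase gene ASPGA1 rose by 0.26 ± 0.072 in Col-0 (edgeR adjusted p = 0.0101), while ASPGB1 stood at 129 and 171 and was not called.

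The autophagy list held 8 genes of the ATG8 family, whose proteins coat the autophagosome, and NBR1, a cargo receptor gene. Of these 9, 4 rose and 0 fell in each genotype (medians 0.25 and 0.27). A further family gene, ATG8E, stands in the list of sugar-repressed transcripts and rose from 231 to 742 in Col-0 (1.70 ± 0.098, edgeR adjusted p = 2.15e-08) and by 1.61 ± 0.14 between the mutant-labelled libraries. ATG8B rose by 0.83 ± 0.091, ATG8A by 0.69 ± 0.079 and ATG8F by 0.41 ± 0.073 in Col-0 (edgeR adjusted p = 6.58e-06, 1.02e-05 and 4.75e-04). ATG8H was called only between the mutant-labelled libraries, at 0.86 ± 0.17 (edgeR adjusted p = 0.00176), beside 0.25 ± 0.11 in Col-0, and the difference was not called (edgeR adjusted p = 0.141).

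Leaf senescence and chlorophyll breakdown genes were mixed. Of 14 listed, 13 were tested and SAG12, a marker of late senescence, lay below the filter, at 0 to 1.01 normalized counts. In Col-0 6 rose and 3 fell (median log2 0.28), and between the mutant-labelled libraries 6 rose and 2 fell (median 0.16); DESeq2 gave 3 higher and 1 lower in each. The senescence regulator genes NAP and ORE1 rose, NAP from 9.56 to 36.1 in Col-0 (1.88 ± 0.35, edgeR adjusted p = 6.77e-04) and ORE1 from 41.8 to 106 (1.37 ± 0.18, edgeR adjusted p = 3.63e-05). SAG29, a sugar carrier gene, fell from 100.8 to 24.5 (-1.98 ± 0.23, edgeR adjusted p = 1.15e-05). SGR2 was called between the mutant-labelled libraries, from 9.24 to 34.6 (1.89 ± 0.50, edgeR adjusted p = 0.00972), not by DESeq2.

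**Figure D4:**
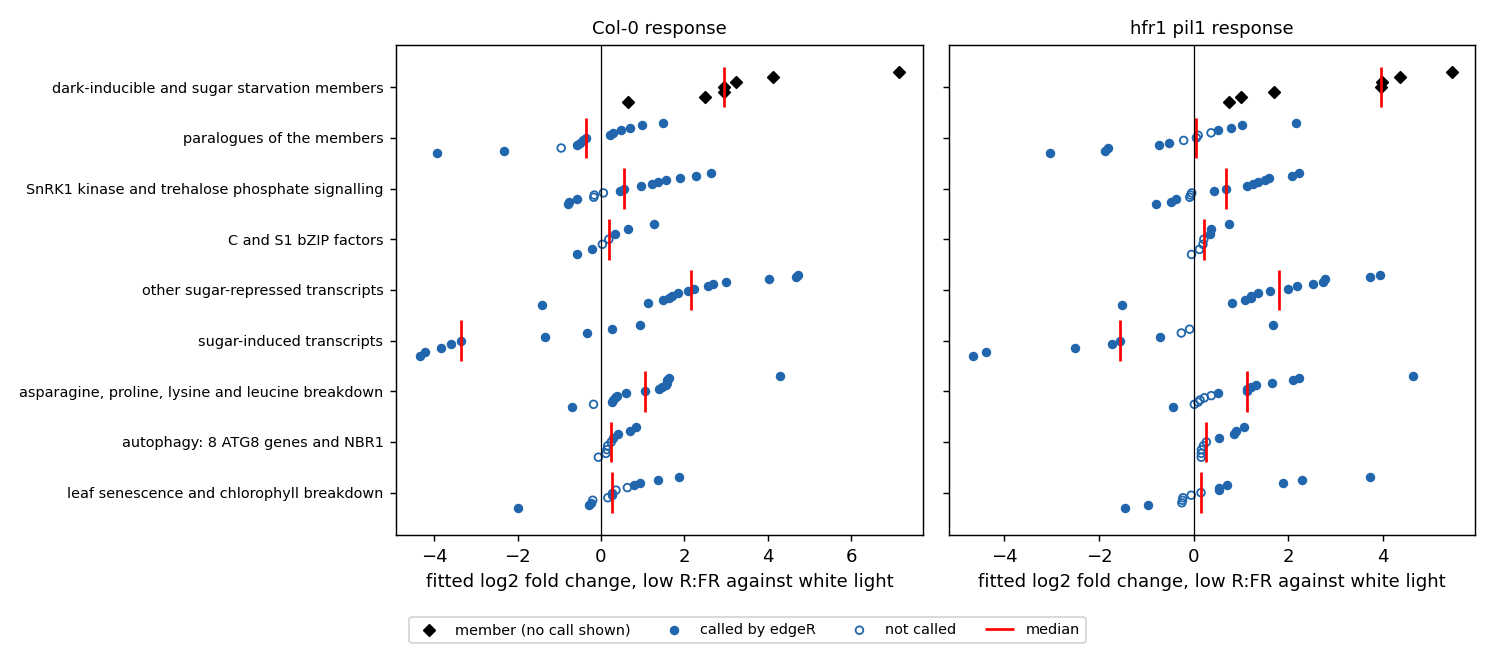
Fitted log2 fold change of each tested gene, by list, in Col-0 (left) and between the libraries labelled hfr1 pil1 (right); filled points were called by edgeR, open points were not, red bars are medians, and the 7 genes are diamonds with no call shown. AT2G17850 is drawn at its lower bound. Other sugar-repressed transcripts sit around 2.16 in Col-0 and sugar-induced ones around -3.36.

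Tested genes outside the lists whose log2 profiles over the 6 libraries, centred on their mean, lay closest to each member were sought. The measure was the root mean square difference. Only genes with a symbol were ranked, so loci without a symbol may lie closer. DIN1 was nearest to HFR1 (0.592), FLP1 and IAA29, the last an auxin-induced repressor gene. DIN2 was nearest to AT1G65970, a peroxiredoxin gene (0.181), KTI1 and UPI, protease inhibitor genes. DIN6 was nearest to the CONSTANS-like gene COL5 (0.177), UPI and IAA6. DIN10 was nearest to AT4G13300 (0.206), XTH24 and PUP18. AT4G13300 carries the symbol TPS13 but is not among the trehalose phosphate synthase genes listed above. It held only 2.59 normalized counts in Col-0 white light. GAT1_2.1 was nearest to the thionin gene THI2.2 (0.171), ATPMEPCRD and FT, the florigen gene. DIN9 and DIN11, with smaller changes, had closer neighbours, CIPK1 (0.0209), CRF7 and PRA1.F4 for DIN9 and MYB70 (0.0682), TTL3 and LYK3 for DIN11. Within the 7, the closest pair was DIN2 and DIN6 (0.368), and DIN1 and DIN9 were farthest apart (2.59). The libraries are the same for every gene, so likeness describes these 6 libraries only.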

How the data were processed

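Expression was measured by RNA sequencing in 4 samples. The authors deposited normalized counts per locus, which are reads divided by a factor per library (a signal, not raw counts); Bowtie and TAIR10 are named per the submitters' processing notes, while the sources used here do not give versions, the counting tool or strand use. The factors were read from the steps of the deposited values. Each Col-0 mean was split into whole reads of 2 libraries where a single pair of counts fitted the printed value. Values of the mutant-labelled columns were whole reads within 0.01 of a read. Of 20111 genes whose mean reached 10.8 normalized counts, 98 could not be split and were not tested, each at 10196 normalized counts or more in a Col-0 column. Columns of no known sample numbered 0.

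Read counts of 6 libraries were fitted with edgeR 4.0.16 (R 4.3.3), with quasi-likelihood tests, the authors' factors as offsets and 2 residual degrees of freedom. A gene was called at a Benjamini-Hochberg adjusted p of 0.05 over all 20013 genes. The fits and the splitting were tested on simulated data. Rankings used the log2 ratio of deposited columns with 10.8 added. Alternatives were DESeq2 1.42.0, TMM scaling, other filters and constants, rescaled columns and leaving out each Col-0 library. Binomial intervals were exact, at 95%. Gene names came from RefSeq's TAIR10.1 annotation, which matched 32825 of 33558 loci.

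The members and lists were chosen with earlier results of these data known. Named were all 7 members, relatives changed at least 2-fold and up to 4 called genes per list with the largest changes. The 3 nearest profiles per member, among genes with a symbol, were named as well. Other genes are marked in the text or are family exceptions chosen after their values were seen. The values of 1 relative are not reported here, though it is counted in its list.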

Additional observations from a re-analysis of the deposited data

Results flagged for a closer look

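In the genes below the response to low R:FR differed between the libraries labelled hfr1-4pil1-2 and Col-0 by the edgeR test of the difference itself. It is given as the mutant-labelled minus the Col-0 fitted log2 fold change. Only the members and lists were screened, without the leaf and root markers and the relative not reported here. Other genes named in the text, such as HFR1, were not screened. The difference was positive for the anthocyanin genes CHS (2.04) and PAP1 (1.83), the rhodanese gene STR18 (1.49), the hexose carrier gene STP13 (0.74) and MGL of methionine breakdown (0.64). The difference was negative for SAG14 (-2.36), a blue copper protein gene known from senescing leaves that rose in Col-0 and fell between the mutant-labelled libraries, and for DIN10 (-1.24), BT2 (-1.02), a scaffold protein gene that sugar represses, and RS2 (-0.71). For DIN10 the value is a description, since it was chosen with its levels known. The call of PAP1 was lost without either Col-0 low R:FR library, that of STP13 with DESeq2 or without the low R:FR replicate 2, and that of MGL with DESeq2.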

How the results depend on the processing

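No value changed sign as a called result under any alternative run. With a constant 5 times larger, the number of genes at least 2-fold higher or lower went from 1524 to 830 in Col-0, from 2222 to 1188 between the mutant-labelled libraries, from 120 to 41 between genotypes in low R:FR, from 164 to 53 in white light and from 473 to 150 in the difference of responses. With a constant 0.1 times as large the last 3 were 311, 377 and 956, and with 5 times the filter they were 74 in low R:FR and 303 in the difference. Members at least 2-fold apart between genotypes numbered 0 in low R:FR, 1 in white light and 3 in the difference; the smaller constant gave 1 in low R:FR and 2 in white light, and the larger one 0 in white light and 1 in the difference. DESeq2 called 5117 genes in Col-0 where edgeR called 9658, 3607 against 7385 between the mutant-labelled libraries, 170 against 478 between genotypes in low R:FR, 132 against 494 in white light and 229 against 760 in the difference; with no filter edgeR called 1147, 1242 and 1572 in the last 3. Members called went from 1 to 2 in low R:FR and from 1 to 3 in the difference with no filter, to 2 in the difference with TMM scaling, and from 2 to 1 in white light with DESeq2. Leaving out each Col-0 library in turn gave 342 to 788 genes called between genotypes in low R:FR, 434 to 844 in white light and 523 to 1179 in the difference, the highest of the last 2 without the white light replicate 1, and 113 to 302 genes at least 2-fold apart in white light, the highest without the same library. The members called then numbered 1 to 2 in low R:FR, 1 to 3 in white light and 2 in the difference. Rescaling the columns to one total moved the median log2 ratio of all genes from -0.02 to 0.10 in Col-0 and from -0.01 to 0.13 between the mutant-labelled libraries. Where not stated otherwise the cause was not tested. No paired analysis was possible because the columns carry no replicate numbers. With 9 and 13 reads of DIN1 in Col-0 white light, depth limits its fold change.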
